A study of Homo sapiens with 6 samples.

Results

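Epithelial cells of the epidermis keep their identity through a small set of transcription factors. The 9 examined here were TP63, KLF4, KLF5, GRHL1, GRHL2, GRHL3, OVOL1, ZNF750 and ELF3, chosen by gene symbol from the 21462 genes of the count table. RNA was sequenced from A431 cells, a human epidermoid carcinoma line with keratinocyte character, of genotype WT (A431CT) and of genotype DSG2 KO (Dsg2KO). There were 3 libraries per genotype, all grown in the same serum-containing medium without further treatment. The Dsg2KO cells carry a CRISPR/Cas9 edit of DSG2, the gene of the desmosomal cadherin Desmoglein-2. Both lines came to the study from another laboratory. Whether the edited line is 1 clone is not given in the sources used here, and a difference between the genotypes and a difference between the lines cannot be told apart. The comparison asks whether loss of Dsg2 goes together with a changed level of the factors that define the epithelial state.

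TP63 encodes p63, the p53-family factor that establishes stratified epithelia and maintains basal keratinocytes. The Krüppel-like zinc finger proteins KLF5 and KLF4 act in proliferating and in differentiating epithelium respectively. The grainyhead-like proteins GRHL1, GRHL2 and GRHL3 drive junction and barrier genes, OVOL1 is a zinc finger repressor that acts as keratinocytes leave the cell cycle, ZNF750 works below p63 in terminal differentiation, and ELF3 is an ETS factor of epithelia. Several of these factors repress mesenchymal regulators such as ZEB1.

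None of the 9 genes passed both thresholds used in the study, a log2 fold change of 0.5 or more in size together with an adjusted p-value below 0.05. Among the 12857 genes that had enough counts to be tested, 2.99% passed both as higher and 3.03% as lower in Dsg2KO cells. Of the 8 factors tested, 3 rose by the adjusted p-value alone: KLF4 by 19.4%, GRHL1 by 24.4% and ELF3 by 18.4%. None fell. By the same rule 14.3% of all tested genes were higher and 15.3% lower. The median over the 8 factors was 0.08 on the log2 scale, beside -0.0048 over all tested genes. Fitted differences were -1.55% for TP63, -2.38% for GRHL2 and 0.37% for OVOL1, and no count of ZNF750 was recorded in any library. All differences below are log2 fold changes of Dsg2KO over A431CT from edgeR's quasi-likelihood fit, with Benjamini-Hochberg adjustment over all tested genes. In bulk samples such as these, fewer cells of a type and less RNA per cell cannot be told apart.

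The libraries held 12845719 to 13650746 counts in A431CT cells and 14786041 to 16255692 in Dsg2KO cells. Levels are given as CPM, a gene's count relative to the library's total after scaling by TMM factors. DSG2 itself had 330, 320 and 319 CPM in the A431CT libraries and 50.9, 55.2 and 49.7 CPM in the Dsg2KO libraries, so the genotypes did not overlap. Of the keratinocyte markers, KRT5 stood at 630 ± 17.7 CPM (SD, n = 3) in A431CT and 575 ± 17.8 (SD, n = 3) in Dsg2KO cells. KRT14, its usual partner keratin, had at most 2 counts in any library. KRT14 shares long stretches of sequence with related keratin genes and pseudogenes, and how the counting treated such reads was not tested. For DSP (436 ± 23.1 and 494 ± 22.5 CPM, SD, n = 3) and EGFR (8451 ± 343 and 9134 ± 216), every Dsg2KO library lay above every A431CT library. For KRT5 every Dsg2KO library lay below every A431CT library. Of all tested genes, 21.2% were higher and 21.4% lower without overlap. The keratinocyte markers KRT17, JUP and TP63 overlapped between the genotypes. Keratinocyte markers, mostly EGFR, summed to 9941 to 10653 CPM in A431CT and 10763 to 11163 in Dsg2KO cells. Summed over the markers of each other type, fibroblast markers reached at most 0.369 CPM, melanocyte markers 4.50, immune markers 5.50 and endothelial markers 15.5. The endothelial sum, over PECAM1, VWF and CDH5, was 8.45 to 11.3 CPM in A431CT cells and 15.02 to 15.5 in Dsg2KO cells. PECAM1 (log2 fold change 0.54, adjusted p = 0.0466, edgeR) and CDH5 (0.76, adjusted p = 0.0035) passed both thresholds as higher. VWF (0.22, adjusted p = 0.66, edgeR) did not. Of all tested genes, 2.99% passed both as higher. The part of this endothelial difference in the results below was not tested.

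TP63 was among the most stable genes. It had 210, 207 and 214 CPM in the A431CT libraries and 203, 200 and 218 CPM in the Dsg2KO libraries. The Dsg2KO values lay on both sides of the A431CT values. The log2 fold change was -0.02 with a 95% interval from -0.11 to 0.07 (edgeR, SE 0.04, adjusted p = 0.74). Of all tested genes, 91.0% had a larger absolute log2 fold change. The gene covers 265.9 kb of chromosome 3 (189631389 to 189897276, plus strand, GRCh38) and makes long and N-terminally shortened proteins from separate starts, which gene-level counts do not separate.

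KLF4 had the smallest p-value of the 9 genes. It stood at 67.7, 70.3 and 68.5 CPM in the A431CT libraries and 82.9, 84.7 and 79.1 CPM in the Dsg2KO libraries. Every Dsg2KO library lay above every A431CT library. The log2 fold change was 0.26 (95% interval 0.15 to 0.36, SE 0.05, edgeR adjusted p = 0.0011). With each library left out in turn it stayed between 0.24 and 0.28. KLF4 (chromosome 9, 107484852 to 107490482, minus strand) shares 357 exon bases with an opposite-strand lncRNA, whose reads cannot be told apart without strand. KLF5 had 43.96, 40.3 and 44.5 CPM in the A431CT libraries and 46.4, 48.9 and 49.0 CPM in the Dsg2KO libraries. These values did not overlap either, although the nearest libraries of the genotypes stood at 44.5 and 46.4 CPM. Its log2 fold change was 0.16 (95% interval 0.03 to 0.29), and the adjusted p-value of 0.0559 (edgeR) missed the threshold. KLF5 (chromosome 13, 73054976 to 73077541, plus strand) passed that threshold when only total counts were used for scaling, when 10 counts were required in every library, and under edgeR's likelihood ratio test.

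The ratio of KLF4 to KLF5 within a library does not depend on how the library is scaled. On the log2 scale, with 2 counts added to each gene, it was 0.62, 0.80 and 0.62 in the A431CT libraries and 0.84, 0.79 and 0.69 in the Dsg2KO libraries. These ranges overlapped, and the means differed by 0.09 (p = 0.3, two-sided exact permutation test, n = 3 against 3, for which 0.1 is the smallest possible p). In the wider KLF family, 14 of 18 genes in the table were tested. KLF4 and KLF10 were higher by the adjusted p-value, and KLF13 and KLF16 were lower, beside 14.3% higher and 15.3% lower among all tested genes. Without A431CT replicate 1 or Dsg2KO replicate 3 the adjusted p-value of KLF10 was 0.0605 and 0.0718 (edgeR). KLF13 lost its call without any 1 A431CT library or without Dsg2KO replicate 2 or 3 (adjusted p from 0.0783 to 0.19, edgeR), and KLF16 lost its call without A431CT replicate 2 or 3 or Dsg2KO replicate 1 or 3 (0.0666 to 0.0955). Neither KLF13 nor KLF16 passed with total counts only (0.0863 and 0.0575, edgeR) or under DESeq2 (0.078 and 0.0586). KLF13 also missed the threshold with RLE scaling (0.052, edgeR). The family's median log2 fold change was 0.07.

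Of the 3 grainyhead-like genes, GRHL1 passed the adjusted p-value and GRHL2 and GRHL3 did not. GRHL1 rose from 21.8, 23.2 and 25.6 CPM in A431CT cells to 30.9, 28.3 and 28.6 CPM in Dsg2KO cells. The genotypes did not overlap. This was the largest absolute change among the 8 tested factors, a log2 fold change of 0.32 (95% interval 0.14 to 0.49, SE 0.08, edgeR adjusted p = 0.0077), and it ranged from 0.26 to 0.38 with 1 library left out. GRHL1 (chromosome 2, 9951693 to 10002277, plus strand) likewise shares 86 and 158 exon bases with a pair of opposite-strand lncRNAs. GRHL2 (chromosome 8, 101492439 to 101669726, plus strand), best known for keeping junction genes active and ZEB1 low, had 142, 137 and 147 CPM in the A431CT libraries and 143, 128 and 144 CPM in the Dsg2KO libraries. These values overlapped, and the log2 fold change was -0.03 (95% interval -0.14 to 0.07, adjusted p = 0.65, edgeR). GRHL2 shares 50 exon bases with an opposite-strand lncRNA.

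GRHL3, a factor of the outer epidermal layers and of wound closure, was the least abundant tested factor. It had 7.86, 7.67 and 7.37 CPM in the A431CT libraries and 5.70, 7.16 and 5.75 CPM in the Dsg2KO libraries, from 85 to 117 counts per library. All Dsg2KO values were below all A431CT values. The log2 fold change of -0.30 did not pass (edgeR, SE 0.16, adjusted p = 0.18). Its 95% interval, from -0.64 to 0.04, was the widest of the 8 and the only one to reach beyond 0.5 in size. The other 7 intervals lay wholly between -0.5 and 0.5, as did those of 70.7% of all tested genes. STPG1, which overlaps GRHL3 (chromosome 1, 24199558 to 24364482, plus strand) on the opposite strand by 7484 bases but shares no annotated exon bases with it, was itself lower, with a log2 fold change of -0.51 (adjusted p = 0.0089, edgeR). It was at -0.42 without A431CT replicate 3 and -0.43 without Dsg2KO replicate 3.

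**Figure D1:**
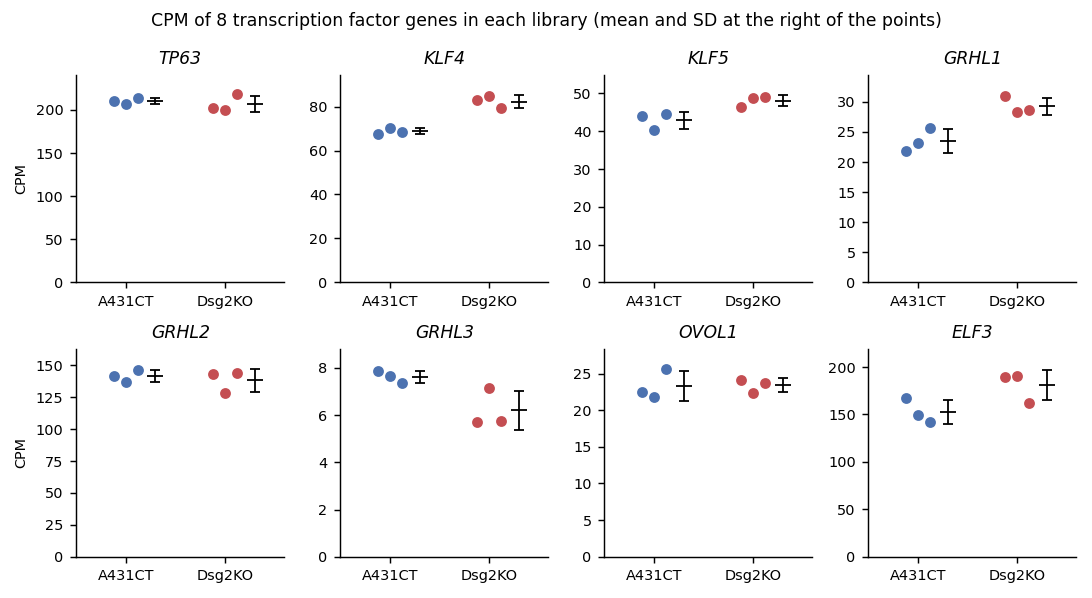
CPM (vertical axes, starting at 0) of the 8 tested factors in the 3 A431CT libraries (blue) and 3 Dsg2KO libraries (red), with the mean and SD beside the points. KLF4, KLF5 and GRHL1 lie higher and GRHL3 lower in Dsg2KO cells without overlap, and the other 4 overlap.

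OVOL1 (chromosome 11, 65787063 to 65797214, plus strand) had the smallest difference of the 8 tested factors. It had 22.5, 21.8 and 25.6 CPM in the A431CT libraries and 24.2, 22.3 and 23.7 CPM in the Dsg2KO libraries, with the Dsg2KO values inside the A431CT range. The log2 fold change was 0.01 (95% interval -0.17 to 0.18, adjusted p = 0.97, edgeR). Its paralog OVOL2, which represses ZEB1 in other epithelia, was at 16.3 ± 2.30 CPM (SD, n = 3) in A431CT and 16.4 ± 1.73 (SD, n = 3) in Dsg2KO cells, with a log2 fold change below 0.01 in size. The log2 ratio of OVOL1 to OVOL2 was 0.52 ± 0.325 (SD, n = 3) in A431CT and 0.51 ± 0.0953 (SD, n = 3) in Dsg2KO cells (p = 0.9, two-sided exact permutation test). OVOL1 shares 1039 exon bases with an opposite-strand lncRNA, whose reads cannot be told apart without strand.

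ELF3 rose with less certainty than KLF4 or GRHL1. It had 167, 149 and 142 CPM in the A431CT libraries and 189, 190 and 163 CPM in the Dsg2KO libraries. The lowest Dsg2KO library lay below the highest A431CT library, so the genotypes overlapped. The log2 fold change was 0.24 (95% interval 0.11 to 0.38, SE 0.06, edgeR adjusted p = 0.0104). Without Dsg2KO replicate 1 the adjusted p-value was 0.0569, and without Dsg2KO replicate 2 it was 0.0543 (edgeR), both above the threshold. EHF, a related epithelial ETS factor, rose by 0.13 on the log2 scale (adjusted p = 0.0427, edgeR), and ELF1 fell by 0.19. EHF did not pass without A431CT replicate 2 or 3 or any 1 Dsg2KO library (adjusted p from 0.0587 to 0.164, edgeR). ELF1 did not pass without A431CT replicate 1 or 2 or Dsg2KO replicate 2 or 3 (adjusted p from 0.0586 to 0.184, edgeR), and DESeq2 called neither. With total counts only, ELF1 did not pass either (adjusted p = 0.0629, edgeR). The lncRNAs ELF3-AS1 and ENSG00000249007 overlap exons of ELF3 by 664 bases each, and neither was a row of the count table. ELF3 lies at 202007945 to 202017183 on the plus strand of chromosome 1.

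ZNF750 had 0 counts in all 6 libraries, which allows up to 0.184 to 0.236 CPM per library at 3 counts, for counting error only. The whole gene (chromosome 17, 82829434 to 82840022, minus strand, GRCh38) lies inside TBCD on the opposite strand and shares 222 exon bases with it. TBCD was at 67.5 ± 1.88 CPM (SD, n = 3) in A431CT and 58.1 ± 2.88 (SD, n = 3) in Dsg2KO cells. Of 541 protein-coding genes that lie wholly inside a protein-coding gene on the opposite strand, 55.1% had no count in any library, beside 12.8% of 18698 other placed protein-coding genes. The part of this nesting in the zero was not tested, and the counting's strand setting is not given in the sources used here. The value is a recorded count of 0, which does not show that the gene was silent.

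Without overlap between the genotypes, 3 of the 8 tested factors were higher and 1 was lower in Dsg2KO cells. Over all tested genes, 21.2% were higher and 21.4% lower without overlap. The gene whose pattern over the 6 libraries was closest to that of KLF4 was FBXO27, followed by C1orf198 and ADAM15. Their centred log2 CPM differed from that of KLF4 by a root mean square of 0.0161, 0.0193 and 0.0198 over the 6 libraries. They were picked as the closest of 12856 genes compared, so small differences follow from the choice. Shared regulation with KLF4 was not tested.

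The position of each gene was set beside its change. The 50 tested genes around GRHL3, which span 4.55 Mb of chromosome 1, centred on a median of -0.29 on the log2 scale, and only 3 of them were above 0. The value of GRHL3 was -0.0059 from that median, and 26 of the 50 neighbours had a larger log2 fold change. The value of KLF4 was 0.23 above the median of its neighbours (0.03) and that of GRHL1 was 0.33 above the median of its 48 neighbours (-0.02). ELF3 was 0.14 above a neighbourhood median of 0.10, in which 39 of 50 genes were above 0. TP63 was -0.11 from a median of 0.09. The neighbours of KLF5, GRHL2 and OVOL1 had medians between -0.02 and 0.05.

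**Figure D2:**
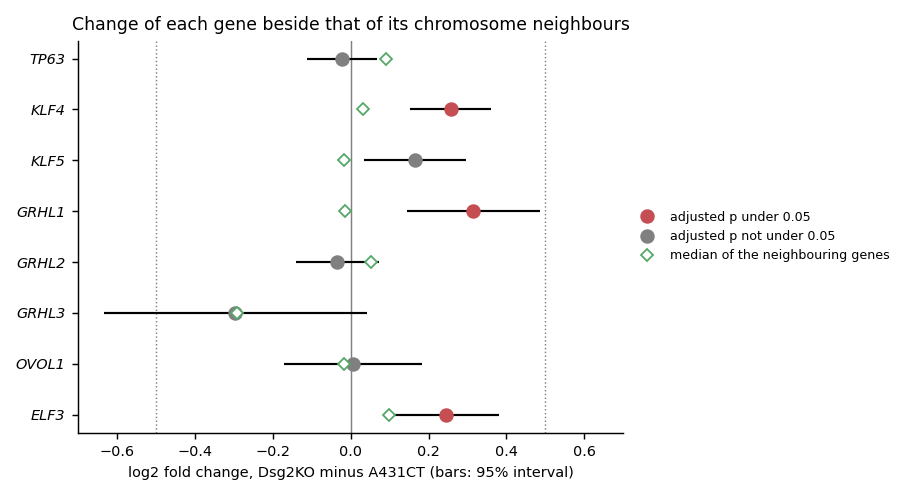
Log2 fold change of each tested factor (points, horizontal axis) with its 95% interval (bars), and the median of up to 25 tested genes on either side (diamonds). Dotted lines mark -0.5 and 0.5. The point of GRHL3 lies on its neighbours' median, whereas KLF4, KLF5, GRHL1 and ELF3 lie above theirs.

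Levels were compared between genes only per length, as CPM per kb of the MANE Select transcript of GENCODE. In A431CT cells the order was ELF3 (49.2 ± 4.19, SD, n = 3), TP63 (42.6 ± 0.663), GRHL2 (27.1 ± 0.925), KLF4 (23.4 ± 0.444), KLF5 (12.8 ± 0.677), OVOL1 (7.80 ± 0.671), GRHL1 (6.59 ± 0.539) and GRHL3 (2.69 ± 0.0888), with ZNF750 at 0. No neighbours in this order overlapped between their libraries. In Dsg2KO cells KLF4 (28.0 ± 0.964) stood above GRHL2 (26.4 ± 1.70), and GRHL1 (8.20 ± 0.406) above OVOL1 (7.83 ± 0.317), but in both pairs the libraries overlapped. The order at the top depends on the length used, since TP63 was first and both TP63 and GRHL2 stood above ELF3 in A431CT cells when the union of all annotated exons was taken. Per length, ELF3 and TP63 lay above 86.9% and 84.7% of the tested genes with a length in A431CT cells, and GRHL3 above 20.8%.

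Within the grainyhead-like family GRHL2 made up most of the summed level per length, 74.5 ± 0.723% (SD, n = 3) in A431CT and 71.7 ± 1.58% in Dsg2KO cells. The share of GRHL1 was 17.0%, 18.4% and 19.0% in A431CT and 22.8%, 22.7% and 21.4% in Dsg2KO libraries. All Dsg2KO shares of GRHL1 were above all A431CT shares. With exon-union lengths GRHL1 held 10.5 ± 0.642% in A431CT and 13.2 ± 0.540% in Dsg2KO cells (SD, n = 3), again without overlap, and GRHL2 held 83.1% and 81.6%. The log2 ratio of GRHL1 to GRHL2 counts differed by 0.35 between the means (p = 0.1, two-sided exact permutation test, the smallest p this design can give). For GRHL3 to GRHL2 the means differed by -0.27 with overlapping libraries (p = 0.3, two-sided exact permutation test).

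**Figure D3:**
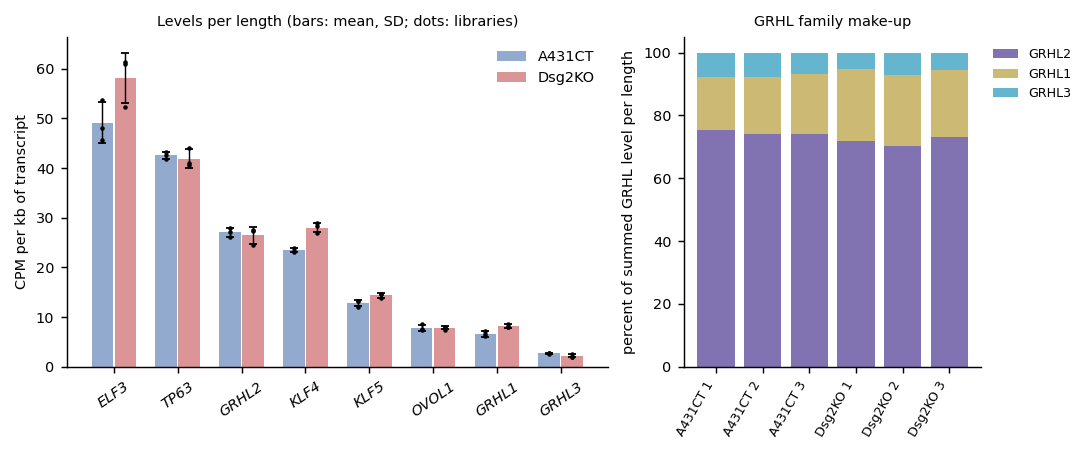
Left, CPM per kb of transcript for the 8 tested factors in A431CT (blue) and Dsg2KO cells (red), with bars for means, whiskers for SDs and dots for libraries. Right, percent of the summed grainyhead-like level per length held by GRHL2, GRHL1 and GRHL3 in each library, where GRHL2 holds over 70 percent in every one.

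The promoters of the 3 factors that rose are shown as the 250 bases before their RefSeq start (GRCh38.p14), 5′ to 3′ on the gene's strand. Capitals mark matches to any of 8 motifs searched on both strands.

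KLF4, chr9:107489770-107490019, minus strand: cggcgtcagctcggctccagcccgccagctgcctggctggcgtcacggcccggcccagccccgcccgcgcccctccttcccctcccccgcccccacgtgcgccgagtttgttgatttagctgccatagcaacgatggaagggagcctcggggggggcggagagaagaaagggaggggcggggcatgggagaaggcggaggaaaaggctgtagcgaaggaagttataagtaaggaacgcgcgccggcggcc
GRHL1, chr2:9951443-9951692, plus strand: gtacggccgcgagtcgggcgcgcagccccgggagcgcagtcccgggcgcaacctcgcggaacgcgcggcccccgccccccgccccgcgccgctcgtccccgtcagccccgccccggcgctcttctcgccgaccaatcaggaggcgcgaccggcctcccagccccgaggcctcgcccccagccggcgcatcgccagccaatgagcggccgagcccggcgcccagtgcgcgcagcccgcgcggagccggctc
ELF3, chr1:202010337-202010586, plus strand: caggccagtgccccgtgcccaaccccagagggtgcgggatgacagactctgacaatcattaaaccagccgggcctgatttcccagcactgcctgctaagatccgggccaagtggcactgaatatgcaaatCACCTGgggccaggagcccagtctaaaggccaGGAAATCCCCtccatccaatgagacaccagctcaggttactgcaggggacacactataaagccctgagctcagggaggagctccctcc

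The windows of KLF4 and GRHL1 held 69.2% and 81.6% G and C bases and no match, and that of ELF3 held 58.4% and 2 matches. In the ELF3 window a kappaB motif match, GGAAATCCCC, begins 88 bases before the start, and a ZEB E-box (CACCTG) begins 120 bases before it. Among 35114 RefSeq windows of the same length, 5.21% held the kappaB motif and 17.5% the ZEB E-box. The others searched were the GRHL motif AACCGGTT (0.117% of windows), the KLF motif CCACCC (31.3%), the ETS core CCGGAA (14.5%), the AP-1 motif TGANTCA (6.57%), the interferon-stimulated response element (3.02%) and the p53 family motif (5.57%). The GRHL motif and the ETS core share letters and can overlap. RefSeq windows matched 6 of the 9 genes, and GRHL3 was the other one with any match. A match describes the letters only.

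Of 22 other epithelial fate factors listed, 14 were tested, and the tested genes had a median of 0.03 on the log2 scale. None passed both thresholds. By the adjusted p-value 4 rose and none fell: RUNX1 (0.39), SOX9 (0.25), TFAP2C (0.25) and EHF. Of all tested genes, 14.3% rose and 15.3% fell by that rule. SOX9 did not pass without A431CT replicate 2 or Dsg2KO replicate 1 (adjusted p = 0.0668 and 0.0598, edgeR), nor TFAP2C without A431CT replicate 3 or Dsg2KO replicate 1 (0.067 and 0.0878). The other 10, among them the basal factor BNC1, did not pass.

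Genes listed as bound or driven by p63 in basal keratinocytes changed in both directions while TP63 did not pass. The list of these genes does not separate those that p63 raises from those that it lowers. Of 23 listed, 20 were tested, and their median on the log2 scale was -0.10. By the adjusted p-value 6 were higher and 9 lower, and 5 did not pass, beside 14.3% higher and 15.3% lower among all tested genes. Past both thresholds, CLCA2, KRT15 and JAG2 were lower and LAMA3 was higher. KRT15, a keratin of basal cells, had 214, 178 and 155 CPM in the A431CT libraries and 89.9, 103 and 79.9 CPM in the Dsg2KO libraries, a difference with a 95% interval from -1.21 to -0.79 on the log2 scale (edgeR, adjusted p = 3.47e-06). CLCA2, a surface protein of basal keratinocytes, had a log2 fold change of -1.01 (adjusted p = 5.47e-05), and JAG2, a Notch ligand, of -0.60 (adjusted p = 1.34e-07). LAMA3, a chain of laminin-332, had a log2 fold change of 0.53 (adjusted p = 8.12e-04), which fell to 0.42 without A431CT replicate 1 and to 0.49 without Dsg2KO replicate 1, under the minimum of 0.5. KRT5 was lower by the adjusted p-value alone, with a log2 fold change of -0.13 (adjusted p = 0.0115, edgeR), and did not pass without A431CT replicate 1 (adjusted p = 0.0624, edgeR).

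Of 33 terminal differentiation genes listed as linked to KLF4, ZNF750, GRHL3 or OVOL1, 16 were tested. Of the 33, 14 had at most 3 counts in every library and 9 of these none, beside 6490 and 3992 of all 21462 genes. The tested genes had a median of 0.07 on the log2 scale, with 3 higher and 3 lower by the adjusted p-value. By that rule 14.3% of all tested genes were higher and 15.3% lower. KRT13, a keratin of internal stratified epithelia, had 124, 87.1 and 94.5 CPM in the A431CT libraries and 32.3, 27.9 and 26.2 CPM in the Dsg2KO libraries, a log2 fold change of -1.83 (edgeR, SE 0.11, adjusted p = 3.55e-08). CSTA, the protease inhibitor cystatin A, was lower by 0.76 on the log2 scale (adjusted p = 7.92e-06). PADI1, a peptidylarginine deiminase, rose from 0.636 ± 0.0944 to 2.44 ± 0.469 CPM (SD, n = 3), a log2 fold change of 1.92 (adjusted p = 6.40e-04). It had 7, 10 and 8 counts in the A431CT libraries and 41, 31 and 43 in the Dsg2KO libraries. PADI1 passed the count filter through the Dsg2KO libraries, and was not tested when every library needed 10 counts. IVL and TGM1, which encode the cornified envelope protein involucrin and the enzyme that crosslinks it, had log2 fold changes of 0.36 (adjusted p = 0.11) and -0.07 (adjusted p = 0.88) and did not pass. IVL passed both thresholds without Dsg2KO replicate 1, at 0.51 (adjusted p = 0.0281, edgeR).

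All 22 adhesion and membrane genes linked to GRHL2, OVOL or ELF3 were tested, and their median on the log2 scale was 0.10. By the adjusted p-value 10 were higher, with log2 fold changes from 0.12 to 0.44, and CLDN3 was lower. Over all tested genes the shares were 14.3% higher and 15.3% lower. CDH1, the E-cadherin gene, had 378, 366 and 364 CPM in the A431CT libraries and 433, 457 and 451 CPM in the Dsg2KO libraries. The log2 fold change of CDH1 was 0.28 (edgeR, SE 0.04, adjusted p = 4.22e-05) with no overlap. MARVELD2, a tricellular junction protein, rose by 0.39 on the log2 scale (adjusted p = 2.20e-04, edgeR). The epithelial splicing factors ESRP1 and ESRP2, often used as GRHL2 and OVOL readouts, were at -0.03 and -0.06 and did not pass. CLDN3 was the only one past both thresholds, at -0.58 (adjusted p = 0.0305, edgeR). It did not pass without A431CT replicate 1 (-0.43, adjusted p = 0.15), nor without Dsg2KO replicate 1, 2 or 3, where adjusted p-values lay between 0.0693 and 0.0808 (edgeR).

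Among 13 opposing mesenchymal factors and markers, 5 were tested, and 1 rose past both thresholds. Of all tested genes, 2.99% passed both as higher and 3.03% as lower. Of the 13, 3 had at most 3 counts in every library and 2 of these none, beside 6490 and 3992 of all 21462 genes. TWIST2, a basic helix-loop-helix factor of mesenchyme, had 2, 5 and 6 counts in A431CT and 63, 46 and 53 counts in Dsg2KO cells, or 0.330 ± 0.157 and 3.44 ± 0.721 CPM (SD, n = 3). Its log2 fold change was 3.34 (edgeR, SE 0.39, adjusted p = 1.58e-05), and the genotypes did not overlap. Over all tested genes, 21.2% were higher without overlap. TWIST2 passed the count filter through the Dsg2KO libraries only, and was not tested when every library needed 10 counts. ZEB1, at 13.1 ± 1.52 CPM in A431CT and 13.6 ± 0.785 in Dsg2KO cells, had a log2 fold change of 0.05 (adjusted p = 0.78). VIM, the mesenchymal intermediate filament vimentin, was at 0.53 (adjusted p = 0.26), with 17 to 31 counts in A431CT and 30 to 62 in Dsg2KO libraries, which overlapped. The median of the 5 tested genes was 0.29.

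**Figure D4:**
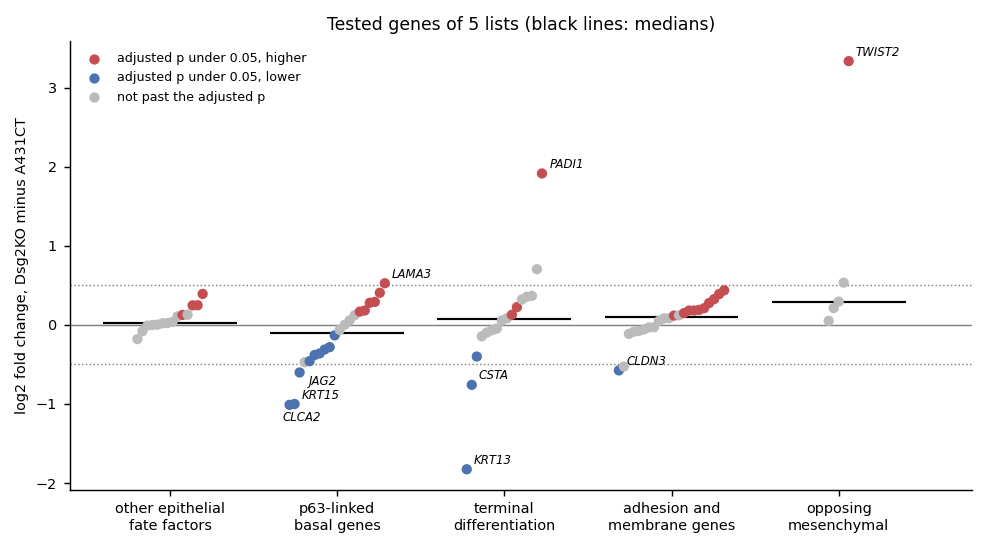
Log2 fold change (vertical axis) of every tested gene in 5 lists linked to the factors, with list medians as black lines and dotted lines at -0.5 and 0.5. Most genes lie between the dotted lines in all lists, and TWIST2, PADI1 and KRT13 lie farthest out.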

How the data were processed

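RNA-seq counts from A431CT and Dsg2KO cells (3 libraries each) were analysed. CLC Genomics Workbench was used by the authors for adapter and quality trimming, alignment of the read pairs to GRCh38 and quantification, and the deposited values are raw counts per gene symbol. The gene annotation and strand setting are not given in the sources used here. The study describes the 3 libraries per condition as biological replicates, and the labels only number them.

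edgeR 4.0.16 in R 4.3.3 was fitted on the whole table with TMM factors, filterByExpr (minimum count 10, minimum total 15), quasi-likelihood F tests without covariates and Benjamini-Hochberg adjustment. edgeR stands in for the built-in CLC test. The fit was tested on simulated data. Log2 CPM and log2 ratios used a prior count of 2. Intervals are at 95%. Positions and lengths came from GENCODE 44, which placed 19470 of 21462 symbols directly and 254 by an older symbol. Replicate numbers did not pair the libraries (residual correlations -0.0027, 0.0135 and 0.0539). Alternatives were other scalings, filters and tests (DESeq2 1.42.0 among them), a replicate block, left-out libraries and other fold change minimums.

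Named genes are the 9 factors, DSG2, 8 fixed reference genes, up to 5 called genes per list and direction, and the 3 genes most alike KLF4. Other names, the motifs, the gene families and the check of nested genes were chosen after values were seen. The factors and lists were chosen with earlier results of these data known.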

Additional observations from a re-analysis of the deposited data

How the results depend on the processing

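No factor passed both thresholds under any scaling, filter, test, replicate block or left-out library, nor with the neighbours' median taken off. Without a fold change minimum 3 passed. KLF4 and GRHL1 kept an adjusted p-value under 0.05 in all 13 alternative fits, and ELF3 lost it only without Dsg2KO replicate 1 or 2. Over the same fits the adjusted p-values of KLF5 lay between 0.0305 and 0.203.

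Signs turned only for values near 0. TP63 was at 4.93e-05 with total counts only. With 1 library left out, TP63 ranged from -0.0618 to 0.0027, GRHL2 from -0.0646 to 0.0198, OVOL1 from -0.0405 to 0.0776, TGM1 from -0.209 to 0.0127, ZEB1 from -0.0272 to 0.14 and OVOL2 from -0.0998 to 0.102. The sign of TP63 and GRHL2 turned without Dsg2KO replicate 2, and that of OVOL1 without any 1 of 4 libraries.

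Over all genes, 3802 passed without a fold change minimum (1835 higher, 1967 lower) and 250 with a minimum of 1 (137 higher, 113 lower), which follows from the minimum. Without it the list counts were 4 for other fate factors, 15 for p63-linked genes, 6 for terminal differentiation and 11 for adhesion genes. With a minimum of 1 they were 2 for p63-linked and 0 for adhesion genes. The adhesion count was 0 under DESeq2 and from 0 to 2 with 1 library left out. TWIST2 and PADI1 were not tested when every library needed 10 counts, and the mesenchymal count was then 0. With the replicate block 0 factors passed both thresholds, and it ended no call of a gene named as higher or lower in the text. The numbers do not pair the samples.

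Per length of the exon union, levels in A431CT and Dsg2KO cells were 28.1 and 27.7 for TP63, 18.8 and 22.5 for KLF4, 11.7 and 13.1 for KLF5, 2.96 and 3.68 for GRHL1, 23.4 and 22.9 for GRHL2, 1.79 and 1.45 for GRHL3, 6.13 and 6.15 for OVOL1, and 21.2 and 25.1 for ELF3. The shares of the grainyhead-like level with these lengths, chosen after seeing the data, were 10.5% and 13.2% for GRHL1, 83.1% and 81.6% for GRHL2, and 6.36% and 5.23% for GRHL3. GRHL3 rests on 85 to 117 counts per library, and its interval does not separate a log2 fold change of -0.5 from none.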
